A study of Mus musculus with 12 samples.

Results

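The genes considered are 10 protein-coding genes that lie close to Mir210, which encodes the precursor of miR-210, on mouse chromosome 7. They are Hras, Lrrc56, Rassf7, Phrf1, Irf7, Deaf1, Tmem80, Eps8l2, Taldo1 and Pnpla2, in order along the chromosome, out of 56941 genes in the count tables. The members were chosen because they lie close to Mir210 and do not take in every gene there: Rnh1, at 48.5 kb, and Ptdss2, at 63.8 kb, are no members. Each was found once among the tables by matching its Ensembl identifier to a symbol. Deleting a microRNA gene removes genomic DNA as well as the microRNA, so the comparison of miR-210 KO with WT was used to ask how the surrounding genes were expressed, and the comparison of M2 with M0 to ask how IL-4 moved them.

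RNA was sequenced from 12 cultures of macrophages derived from bone marrow monocytes of C57BL/6J mice, 3 of each genotype in each state (WT M0, WT M2, miR-210 KO M0 and miR-210 KO M2). The deletion came from a cross of mice with a floxed miR-210 gene and Gata-1 Cre mice, and WT and miR-210 KO mice were bred from heterozygous parents. Every culture grew for 7 days in 20% serum and 30% L929-conditioned medium, a source of M-CSF. The M2 cultures then had 72 hours with 20 ng/mL IL-4, and the M0 cultures were kept without it. The labels do not say which cultures came from separate mice, so p-values measure the spread between these cultures only.

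miR-210 is a microRNA that is induced by hypoxia and, like other microRNAs, pairs through its seed with messenger RNAs that it represses. Its neighbours have unrelated roles. Irf7 encodes the transcription factor that amplifies type I interferon responses and is itself induced by interferon, Hras encodes a small GTPase that feeds the MAPK cascade, Taldo1 encodes transaldolase of the pentose phosphate pathway and Pnpla2 encodes adipose triglyceride lipase, which starts the breakdown of stored fat.

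The sequence of the deleted gene is shown first, because its position defines the neighbourhood. RefSeq gives the precursor as 110 bases, which matched GRCm39 exactly once on chromosome 7, at chr7:140801297-140801406 on the minus strand. In the first line the capitals mark the mature 3p strand, and in the other lines the seed, bases 2 to 8 of the mature strand.
Mir210 precursor: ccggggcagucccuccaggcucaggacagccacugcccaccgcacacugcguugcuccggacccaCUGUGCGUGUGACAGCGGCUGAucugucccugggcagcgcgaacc
mmu-miR-210-3p: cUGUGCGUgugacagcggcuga
mmu-miR-210-5p: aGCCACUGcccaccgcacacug

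In WT, Mir210 was counted 1, 3 and 5 times in M0 and 1, 2 and 1 times in M2. All 6 miR-210 KO libraries had 0 counts of Mir210. As a floor that covers counting error only, a count of 0 allows up to 3 counts, or between 0.295 and 0.313 CPM (counts-per-million) in the deepest library of each group, so the WT libraries were themselves near this floor. In GENCODE a long noncoding RNA, Gm72526, covers the whole of Mir210 on the same strand, and it was not analysed here.

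The neighbours fall on both sides of Mir210. Rassf7 is the nearest of the 10, 2.72 kb before it (chr7:140795047-140798582, plus strand). Phrf1, which encodes a ubiquitin ligase with PHD and RING fingers, begins 6.96 kb after it (chr7:140808368-140842681, plus strand). Lrrc56 (chr7:140773995-140789989, plus strand), which is needed to assemble the dynein arms of cilia, and Hras (chr7:140768592-140773962, minus strand) lie 11.3 and 27.3 kb before it. Irf7 lies 41.2 kb after it (chr7:140842619-140846398, minus strand), and Deaf1, a transcription factor gene, 75.7 kb after it (chr7:140877090-140908133, minus strand). Farther out are Tmem80 (chr7:140907374-140917071, plus strand), a gene for a membrane protein, at 106 kb and Eps8l2 (chr7:140918255-140944232, plus strand), which encodes an actin regulator of the EPS8 family, at 117 kb. Taldo1 (chr7:140972053-140982886, plus strand) at 171 kb and Pnpla2 (chr7:141034404-141040656, plus strand) at 233 kb are the most distant. The ends of Phrf1 and Irf7 overlap by 63 bases on opposite strands, and Deaf1 and Tmem80 overlap by 760 bases. The counts were made by strand, which separates such pairs as far as the library keeps strand.

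The longest GENCODE transcript of each of the 10 genes held 0 matches to the reverse complement of the miR-210-3p seed, the letters ACGCACA. Such a match occurs in the longest transcript of 9.18% of 21667 protein-coding genes, at a median transcript length of 3639 bases. No match says only that these letters are not in these transcripts. The RefSeq promoters, 250 bases before to 50 bases after a start (GRCm38.p6), were searched on both strands. All 10 genes matched a promoter, Lrrc56 and Deaf1 with 2 each. Below, the members are counted by gene and the shares of all promoters by promoter, which is not the same base. The core of the interferon-stimulated response element, GAAANNGAAA, was in the promoters of 0 of the 10 genes and in 3.44% of 32851 promoters. The core of the hypoxia response element, ACGTG, was in the promoters of 0 of the 10 and in 19.6% of all promoters. The letters TTCNNNNGAA, which STAT6, the factor activated by IL-4, can bind, read the same on both strands and were in 2 of the 10 and in 6.95% of all promoters. The 2 are Deaf1, in 1 of its 2 promoters, and Tmem80, and both windows hold the same stretch, since the pair starts head to head. It is shown in capitals in both directions because it is the single stretch that any of the 3 searches found. In GRCm39 the whole printed window, capitals with the bases around them, lies at chr7:140907847-140907876, inside the annotated span of both genes.
Tmem80, plus strand: tctcccctgcTTCCAACGAAgtctgggttc
Deaf1, minus strand: gaacccagacTTCGTTGGAAgcaggggaga

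Library totals lay between 7930525 and 10167695 counts. Macrophage markers, 6 of 6 in the tables, summed to between 3310 and 4030 CPM in every library, with members that differed between the states (given with Irf7), while the lists of T cells, B cells, neutrophils and natural killer cells stayed at or below 0.249 CPM and that of fibroblasts at or below 1.7 CPM. Erythroid markers lay between 0 and 2.8 CPM in WT M0 and between 0 and 3.66 CPM in WT M2, and were at 0 in all miR-210 KO libraries. The monocytes had been isolated by negative selection, with antibodies against erythroid cells, lymphocytes, neutrophils and dendritic cells, before they were cultured. IL-4 did act on the cultures. Arg1, an M2 marker, had between 340 and 852 counts in the M0 libraries and between 14532 and 18338 in the M2 libraries. Retnla had 0 counts in all M0 libraries and between 2161 and 4493 in the M2 libraries. Mrc1, the mannose receptor gene, was 0.62 higher on the log2 scale in WT M2 (SE 0.10, adjusted p = 0.00022) and 0.89 higher in miR-210 KO M2 (SE 0.09, adjusted p = 4.4e-06; edgeR quasi-likelihood test with Benjamini-Hochberg adjustment, as for every adjusted p here unless another tool is named). Batches in the labels coincide with the 4 groups, and a batch and a group cannot be told apart.

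Of the 10 neighbours, 9 were expressed above the filter on low counts and 1, Eps8l2, was not. Eps8l2 had 1 count in 1 WT M2 library and 0 counts in the other 11. Per kilobase of exon, the medians over the 12 libraries were 52.1 CPM for Irf7, 39.4 for Taldo1, 8.19 for Pnpla2, 4.94 for Tmem80, 3.86 for Hras, 3.17 for Phrf1, 1.95 for Deaf1, 1.31 for Rassf7 and 0.744 for Lrrc56. The order of Irf7 and Taldo1 depended on the state. In M0 the mean level of Irf7 per kilobase was 126 CPM (SD 26.2, n = 3) in WT and 103 CPM (SD 12.4, n = 3) in miR-210 KO, above the 38.8 (SD 5.83) and 45.8 CPM (SD 5.07) of Taldo1. In M2 it was 14.7 CPM (SD 0.961) in WT and 12.1 CPM (SD 3.56) in miR-210 KO, below the 39 (SD 0.795) and 37.4 CPM (SD 2.97) of Taldo1. Over the 12 libraries the ranges of Tmem80 and Hras, Hras and Phrf1, Deaf1 and Rassf7, and Rassf7 and Lrrc56 overlapped. Within groups some of these pairs were apart. Rassf7 per kilobase stood above Lrrc56 at 1.99 CPM (SD 0.112) against 0.738 (SD 0.0633) in WT M0, 1.31 (SD 0.0655) against 0.642 (SD 0.0497) in miR-210 KO M0 and 1.37 (SD 0.195) against 0.754 (SD 0.0122) in WT M2, while in miR-210 KO M2 the values were 0.966 (SD 0.201) and 0.758 (SD 0.141). The lowest library of Hras stood above the highest of Phrf1 in all 4 groups, at 3.81 against 3.51 CPM per kilobase in WT M0, 3.89 against 3.42 in miR-210 KO M0, 3.49 against 3.45 in WT M2 and 3.21 against 3.09 in miR-210 KO M2. Taldo1 stood above Pnpla2, Pnpla2 above Tmem80 and Phrf1 above Deaf1 in every library.

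**Figure D1:**
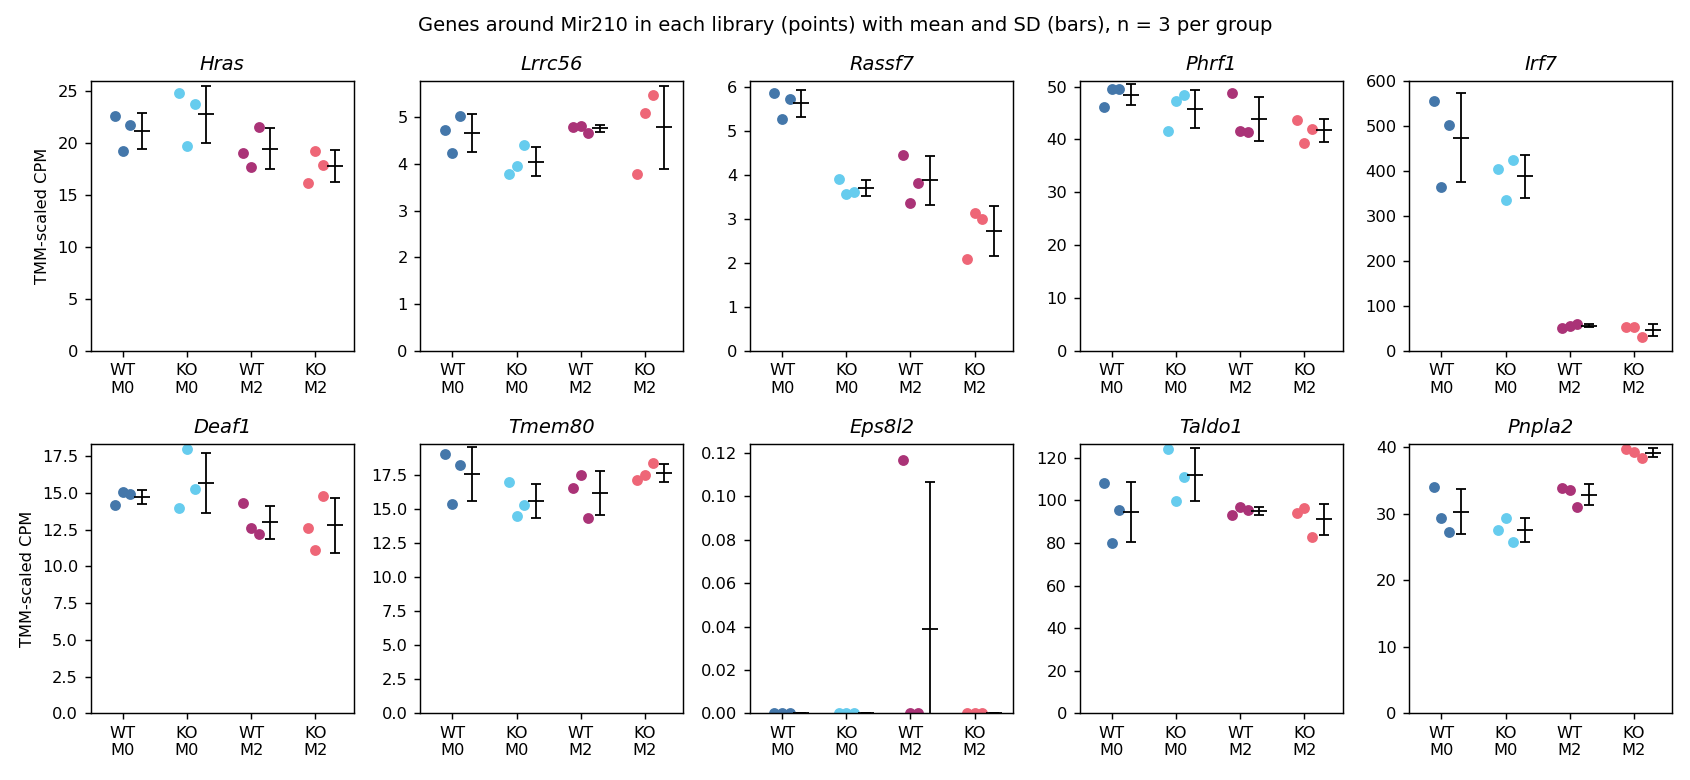
TMM-scaled CPM (y axis, from 0) of the 10 genes around Mir210, in order along chromosome 7, in the 3 libraries of each group (points, KO for miR-210 KO), with the group mean and SD (bars). Irf7 sits between 335 and 556 CPM in the M0 libraries and between 30 and 58.8 CPM in the M2 libraries, and Eps8l2 has a single count in 1 library.

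The first comparison was between miR-210 KO and WT in M0. None of the 9 genes tested was called, that is, none had an adjusted p under 0.05 with a log2 fold change beyond 0.263 in size (0 of 9, against 0.461% of 14089 genes tested by edgeR). The DESeq2 Wald test also called 0. An unadjusted p under 0.05 was reached by 1 of the 9, against 10.0% of all genes. The gene was Rassf7, a member of the N-terminal RASSF family, which carries a RAS-association domain, and it is also the member nearest to Mir210.

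In M0 the counts of Rassf7 were 46, 51 and 57 in WT and 35, 37 and 36 in miR-210 KO. On the CPM scale these were 5.86, 5.26 and 5.73 in WT and 3.91, 3.57 and 3.6 in miR-210 KO. The groups did not overlap, and the lowest WT library stood above the highest miR-210 KO library. Groups that did not overlap, lower in miR-210 KO, were found for 7.27% of all genes. The log2 fold change was -0.62 (SE 0.20, 95% interval -1.05 to -0.19), a 1.53-fold lower level, at an adjusted p of 0.27.

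In M2 the Rassf7 counts were 38, 32 and 31 in WT and 17, 30 and 24 in miR-210 KO. The CPM values were 4.45, 3.35 and 3.81 in WT and 2.08, 3.12 and 2.99 in miR-210 KO. The groups again did not overlap, with 8.10% of all genes lying so in this direction. The log2 fold change was -0.49 (SE 0.23, 95% interval -0.98 to 0.01) with an adjusted p of 0.47. With the 12 libraries in 1 fit and the state as a term, a fit added after seeing the data, the log2 fold change of Rassf7 was -0.56 (SE 0.14, 95% interval -0.85 to -0.28) with an unadjusted p of 0.00069 and an adjusted p of 0.055. That fit called 1.07% of 14825 genes and 0 of the 9 neighbours, of which 2 (Rassf7 and Irf7) had an unadjusted p under 0.05, against 10.4% of all genes. DESeq2 called 0 of them as well, with an adjusted p of 0.11 for Rassf7. Rassf7 was thus lower in miR-210 KO in 3 of 3 libraries of each state and did not pass the adjusted threshold. Its counts, between 17 and 57, limit what these libraries can show. Erythroid markers were also found in WT only, though not in every WT library of either state, and their part in this result was not tested.

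Irf7 had 556, 364 and 503 CPM in the WT M0 libraries and 405, 335 and 425 CPM in miR-210 KO M0. The groups overlapped, since the second WT library lay within the range of miR-210 KO. The log2 fold change was -0.30 (SE 0.14, 95% interval -0.62 to 0.02, adjusted p = 0.53). Leaving out 1 library at a time it lay between -0.45, without library 2 of WT, and -0.18, without library 1 of WT, with adjusted p-values from 0.057 to 0.88. In M2 Irf7 had 51.6, 56.1 and 58.8 CPM in WT and 53.1, 53.6 and 30 CPM in miR-210 KO. A single miR-210 KO library was low and the other two lay within the WT range. The log2 fold change was -0.27 (SE 0.15, adjusted p = 0.56), and leaving out 1 library at a time it lay between -0.41 and -0.05. Over both states it was -0.29 (SE 0.12, 95% interval -0.55 to -0.04, unadjusted p = 0.027, adjusted p = 0.39). Without the filter on low counts the same comparison gave Irf7 an adjusted p of 0.00049, at -0.28 with a smaller SE of 0.06. The DESeq2 Wald test gave an adjusted p of 0.66 (SE 0.16). With a mean count of at least 50 the adjusted p was 0.39 (SE 0.12), so the low value rested on that 1 setting.

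Pnpla2 and Taldo1, the metabolic enzyme genes at the far end, were not called in either state. Pnpla2 had 33.9, 33.5 and 31 CPM in WT M2 and 39.7, 39.3 and 38.4 CPM in miR-210 KO M2. The groups did not overlap, higher in miR-210 KO, as for 7.94% of all genes, and the log2 fold change was 0.26 (SE 0.08, 95% interval 0.09 to 0.42, unadjusted p = 0.0049, adjusted p = 0.18). It was the single neighbour with an unadjusted p under 0.05 in M2, against 10.7% of all genes, and 0 of the 9 were called there by edgeR or DESeq2, against 0.980% of 13980 genes by edgeR. In M0 its groups overlapped, with a log2 fold change of -0.15 (SE 0.11, adjusted p = 0.72) that lay between -0.21 and -0.06 with 1 library left out. Taldo1 had 108, 79.9 and 95.7 CPM in WT M0 and 124, 99.8 and 111 CPM in miR-210 KO M0, which overlapped, with a log2 fold change of 0.23 (SE 0.12, adjusted p = 0.58). Leaving out 1 library at a time it lay between 0.13, without library 2 of WT, and 0.33, without library 1 of WT, with adjusted p-values from 0.22 to 0.94. In M2 its log2 fold change was -0.06 (SE 0.07, adjusted p = 0.85).

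The other 5 neighbours tested had log2 fold changes between -0.21 (Lrrc56) and 0.09 (Hras) in M0 and between -0.12 (Hras) and 0.13 (Tmem80) in M2. Their groups overlapped in both states and their adjusted p-values ranged from 0.7 to 0.99. Phrf1 had the narrowest interval in M0, from -0.30 to 0.11 on the log2 scale, and Lrrc56 the widest in either state, from -0.66 to 0.24 in M0. A lower or higher level within these intervals could not be told from no difference.

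**Figure D2:**
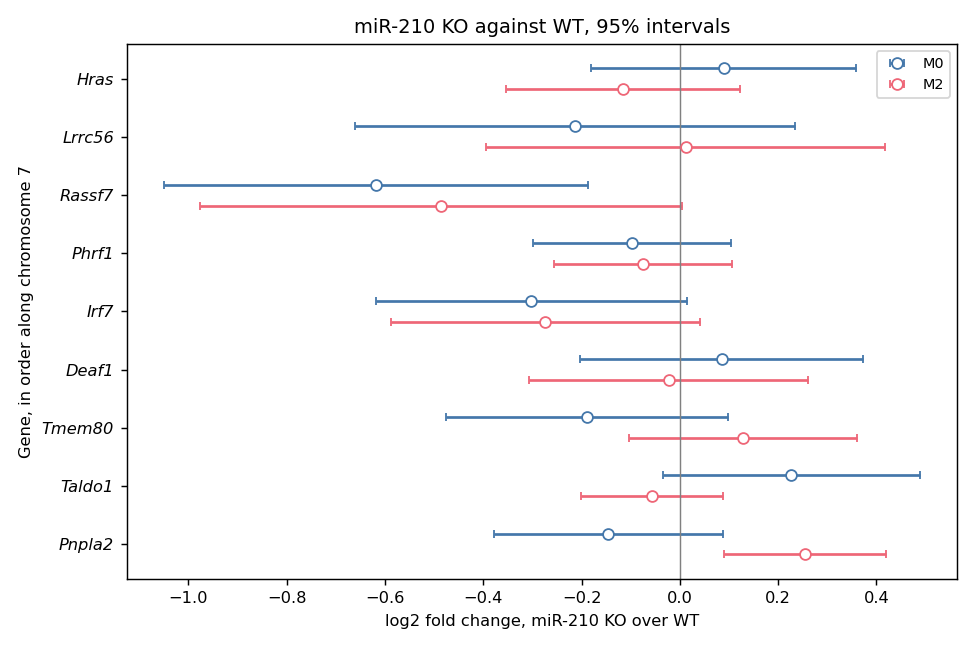
Log2 fold change of miR-210 KO over WT (x axis) with its 95% interval for the 9 neighbours tested, in order along chromosome 7, in M0 (blue) and M2 (red). Open circles are genes that were not called, which is all of them, and Rassf7 has the lowest value in both states, at -0.62 and -0.49.

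Distance from Mir210 was then set against the same fold changes for every gene tested. Within 100 kb GENCODE has 25 genes, of which 15 are in the count tables and 9 could be tested, the 6 nearest neighbours with Ptdss2, Rnh1 and Gm57245. None of these 9 was called in either state, and the median of their log2 fold changes was -0.05 in M0 and -0.09 in M2, against 0 and 0.00 over all genes. Ptdss2, which encodes a phosphatidylserine synthase, had log2 fold changes of -0.05 (SE 0.13) in M0 and 0.03 (SE 0.10) in M2. Rnh1, which encodes the ribonuclease inhibitor, had -0.04 (SE 0.11) and -0.09 (SE 0.06). Between 100 kb and 1 Mb 0 of 34 genes were called in M0 and 0 of 33 in M2, and between 1 and 10 Mb 1 of 77 was called in each state, Cd81. The median size of the log2 fold change was 0.10 within 100 kb and 0.12 over all genes in M0, and 0.09 in M2 for both.

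**Figure D3:**
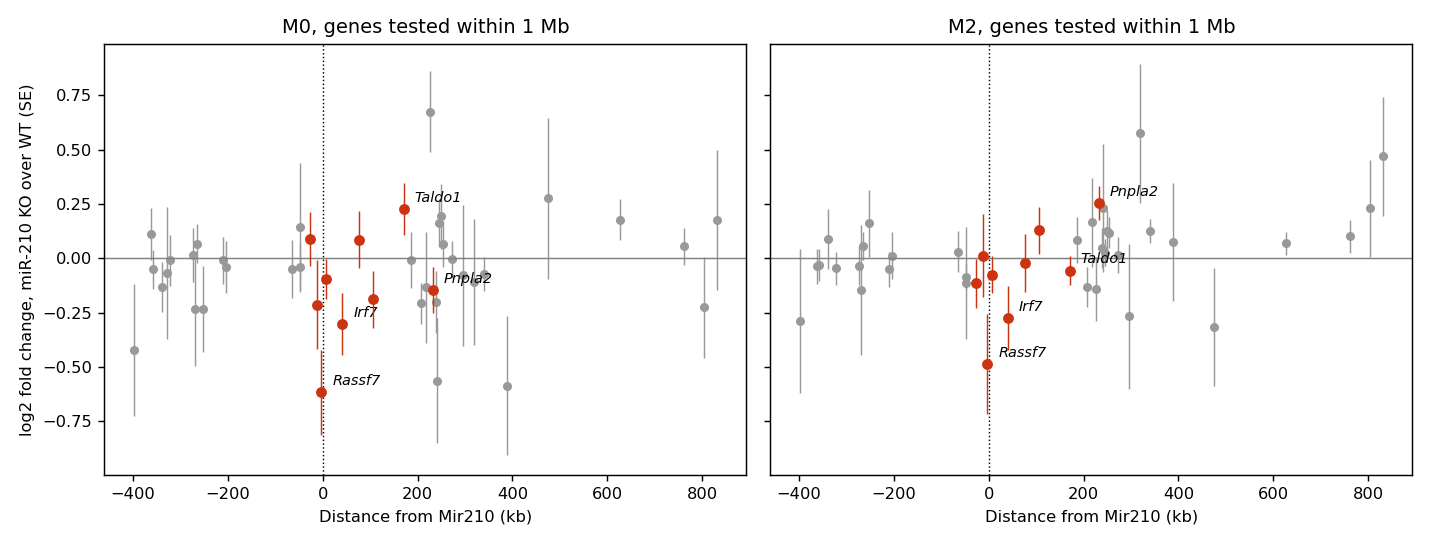
Log2 fold change of miR-210 KO over WT (y axis, bars show the SE) against the distance from Mir210 in kb (x axis, negative before it and positive after it) for every gene tested within 1 Mb, with the 9 neighbours in red and other genes in grey. Rassf7 lies at the dotted line of Mir210 with -0.62 in M0 and -0.49 in M2, and other genes reach values of that size, such as Rplp2 at 0.68 (SE 0.19) and Gm16982 at -0.59 (SE 0.32) in M0 and Gm57210 at 0.58 (SE 0.32) in M2. None of the genes shown was called.

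The comparison of M2 with M0 gave larger differences. In WT, 2 of the 9 neighbours tested were called, both lower in M2, against 35.4% of 14266 genes called in either direction, 18.4% of them higher and 17.0% lower. They were Irf7 and Rassf7. In miR-210 KO, 3 of 9 were called, Irf7 and Taldo1 lower and Pnpla2 higher, against 28.4% of 14331 genes, 14.3% higher and 14.0% lower. An unadjusted p under 0.05 was reached by 2 of 9 in WT and 4 of 9 in miR-210 KO, against 53.8% and 43.5% of all genes. The share of neighbours called was 22.2% in WT, below the 35.4% of all genes, and 33.3% in miR-210 KO, above the 28.4% of all genes. Whether shares of only 9 genes differ from those of all genes was not tested. Groups that did not overlap were found for 2 neighbours in WT and 5 in miR-210 KO, against 56.9% and 46.3% of all genes.

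Irf7 fell in both genotypes. In WT its 3 M0 libraries had 4364, 3530 and 5004 counts and its 3 M2 libraries 441, 536 and 478 counts. In miR-210 KO it had 3629, 3472 and 4246 counts in M0 and 435, 516 and 241 counts in M2. The M0 and M2 libraries did not overlap in either genotype. The log2 fold change was -3.08 in WT (SE 0.13, 95% interval -3.37 to -2.80, adjusted p = 5.9e-10), an 8.48-fold lower level. In miR-210 KO it was -3.07 (SE 0.18, 95% interval -3.46 to -2.67, adjusted p = 4.2e-08), an 8.39-fold lower level. The genotypes differed in this log2 fold change by 0.02 (SE 0.25, 95% interval -0.50 to 0.55, adjusted p = 0.99). Fewer cells that express Irf7 and less Irf7 RNA per cell cannot be told apart in such bulk samples. Phrf1, whose end overlaps that of Irf7, had log2 fold changes of -0.13 (SE 0.09, adjusted p = 0.22) and -0.12 (SE 0.09, adjusted p = 0.36) in the same comparisons.

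Cell type markers moved with the state, and so did some of the macrophage list, whose sum lay between 3700 and 4030 CPM in M0 and between 3310 and 3770 CPM in M2. Fcgr1, an Fc receptor gene, had between 394 and 583 CPM in WT M0 and between 320 and 352 CPM in miR-210 KO M0. In M2 it had between 58.3 and 67.1 CPM in WT and between 39.6 and 65 CPM in miR-210 KO. Mertk, a receptor gene for the uptake of dying cells, had between 165 and 213 CPM in M0. In M2 it had between 73.5 and 83.2 CPM in WT and between 92.8 and 105 CPM in miR-210 KO. Itgam had between 238 and 313 CPM in WT M0 and between 406 and 452 CPM in WT M2. In miR-210 KO it had between 334 and 372 CPM in M0 and between 391 and 400 CPM in M2. In M0, Fcgr1 was thus lower and Itgam higher in every miR-210 KO library than in any WT library. Groups that did not overlap, lower in miR-210 KO M0, were found for 7.27% of all genes. For the rest of the macrophage list the M0 ranges of the genotypes overlapped, as for Mertk (192 to 213 CPM in WT, 165 to 203 CPM in miR-210 KO). The part of these markers in the fall of Irf7 and in its genotype comparisons was not tested. The dendritic cell list of 3 genes summed to between 0.31 and 0.966 CPM in the M0 libraries and to between 10.1 and 17.8 CPM in the M2 libraries, of which Zbtb46 held 9.45 to 17.6 CPM, while Flt3 was at 0 in all M2 libraries. Plasmacytoid dendritic cells, which carry much Irf7, have a list of 3 genes that summed to between 435 and 538 CPM in M0 and between 201 and 257 CPM in M2. Of these 3 genes, Bst2 had between 201 and 538 CPM, Ccr9 had at most 9 counts, or 1.11 CPM, and Siglech had 0 counts in every M0 library and at most 1 in an M2 library. Dendritic cells were among those removed when the monocytes were isolated. The part of the dendritic cell markers in the fall of Irf7 was not tested.

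**Figure D4:**
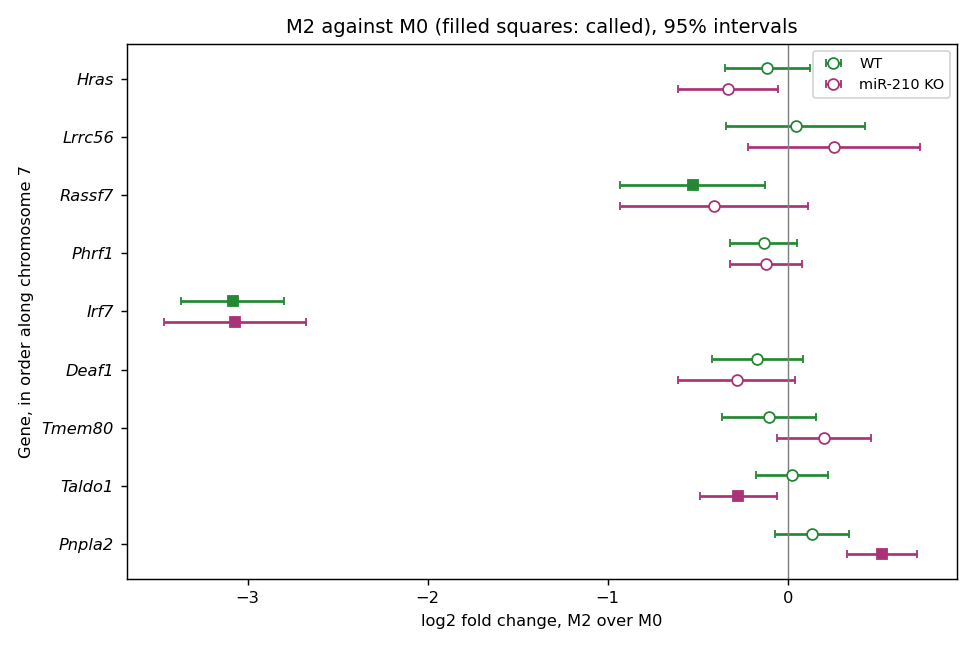
Log2 fold change of M2 over M0 (x axis) with its 95% interval for the 9 neighbours tested, in WT (green) and miR-210 KO (purple). Filled squares were called and open circles were not: Irf7 lies near -3 in both genotypes, Rassf7 is called in WT, and Taldo1 and Pnpla2 in miR-210 KO.

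Irf7 was set beside the genes of its pathway, from lists chosen with earlier results of these data known. All 20 interferon-stimulated genes in the list fell with IL-4 in WT and in miR-210 KO, with a median log2 fold change of -2.29 in WT and -1.99 in miR-210 KO, where the medians of all genes were 0.00 and -0.01. The counts called in this and the other lists stand against 35.4% of all genes called in either direction in WT and 28.4% in miR-210 KO. Ifit3 had -4.56 (SE 0.19) and -4.36 (SE 0.17), Ifit2 -3.83 (SE 0.18) and -3.59 (SE 0.15), and Bst2, the smallest in WT, -1.03 (SE 0.08) and -1.06 (SE 0.11), each called in both. Ordered by log2 fold change in WT, Irf7 came between Ifit2 and Ifi44 (-2.98). Of 21 sensors, adaptors and factors that act in the activation of IRF7, 12 were called lower and 2 higher with IL-4 in WT. In miR-210 KO 10 were called lower and 2 higher. Tlr9, the endosomal receptor of unmethylated DNA, fell by 4.34 on the log2 scale in WT (SE 0.16, adjusted p = 1.4e-10) and by 3.10 in miR-210 KO (SE 0.22, adjusted p = 2.5e-07). Tlr7, Stat2, Irf9, Rigi, Ifih1 and Ikbke fell in both genotypes, whereas Ifnar1, a subunit of the interferon receptor, and Sting1 rose in both.

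The other interferon regulatory factors did not all follow Irf7. Of 8 tested in the family of 9, Irf7 included, 3 were called lower and 2 higher with IL-4 in WT. Beside Irf7, Irf8 fell by 0.78 (SE 0.07, adjusted p = 1e-06) and Irf9 by 0.58 (SE 0.08, adjusted p = 4.4e-05) on the log2 scale in WT. Irf4, which IL-4 is known to induce, rose by 3.62 (SE 0.16, adjusted p = 6.9e-10) in WT and by 3.83 (SE 0.19, adjusted p = 8.2e-09) in miR-210 KO. Irf2 rose by 0.30 (SE 0.06, adjusted p = 0.0015) in WT and by 0.64 (SE 0.09, adjusted p = 8.8e-05) in miR-210 KO, and Irf1 rose in miR-210 KO by 0.30 (SE 0.10, adjusted p = 0.032).

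Between miR-210 KO and WT in M0, the log2 fold change was below 0 for 19 of the 20 interferon-stimulated genes, with a median of -0.49, and for Irf7, at -0.30. Isg15 (-0.89, SE 0.14, adjusted p = 0.018) and Ifi44 (-0.88, SE 0.16, adjusted p = 0.036) were called, 2 of 20 against 0.241% of all genes called lower. In M2 it was again below 0 for 19 of 20, with a median of -0.23, and 0 were called by edgeR, against 0.572% of all genes called lower. In the fit over both states, which was added after seeing the data, the median was -0.37. That fit called 5 of the 20, all lower, against 1.07% of all genes called in either direction. Of the IRF7 activation genes, Tlr9 alone was called in M0 (-0.58, SE 0.10, adjusted p = 0.034), and 0 of 21 in M2. All 8 interferon regulatory factors tested, Irf7 included, had a log2 fold change below 0 in M0, with a median of -0.19, and none was called. In M2 4 lay above 0 and 4 below, with a median of -0.04, and none was called.

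**Figure D5:**
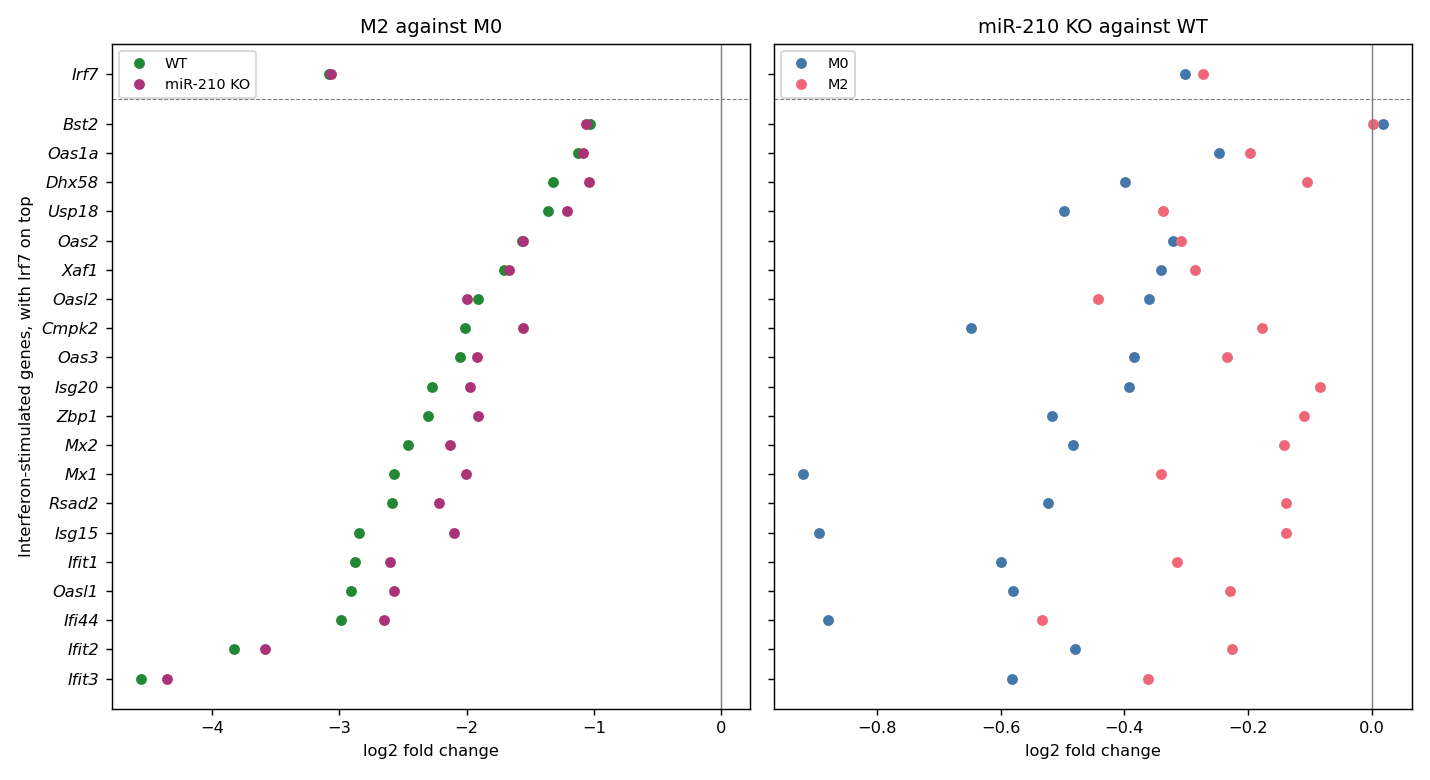
Log2 fold change (x axes) of 20 interferon-stimulated genes, with Irf7 above the dashed line, for M2 over M0 in WT and miR-210 KO (left panel) and for miR-210 KO over WT in M0 and M2 (right panel). On the left all 20 genes and Irf7 lie below -1. On the right 19 of 20 lie below 0 in each state, and Irf7 lies at -0.30 in M0 and -0.27 in M2.

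The genes whose log2 CPM over the 12 libraries was most like that of Irf7, among 14073 genes with an average count over 10, were Rasa4 (Pearson r = 0.998), Ifi206 (r = 0.998) and Slfn1 (r = 0.997). With 6 M0 and 6 M2 libraries these coefficients describe mainly the difference between the states. The genes most like the other members were Bbs4 for Rassf7 (r = 0.930), Cep164 for Deaf1 (r = 0.941), Gsk3a for Taldo1 (r = 0.941), Mxd4os1 for Pnpla2 (r = 0.947), Tmem41a for Hras (r = 0.929), Dffb for Lrrc56 (r = 0.925), Mrps17 for Tmem80 (r = 0.921) and Gm28791 for Phrf1 (r = 0.867). Of these 11 genes only Gsk3a lies on chromosome 7. All were picked as the highest coefficients among 14073 genes over 12 libraries. How high such a maximum lies for unrelated genes was not tested. Among pairs of the neighbours themselves the highest coefficient was 0.704, for Hras and Taldo1, and the lowest -0.78, for Irf7 and Pnpla2.

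Rassf7 fell with IL-4 in WT by 0.53 on the log2 scale (SE 0.19, 95% interval -0.93 to -0.12, adjusted p = 0.033), a 1.44-fold lower level. In miR-210 KO its log2 fold change was -0.41 (SE 0.24, adjusted p = 0.22), and its groups did not overlap in either genotype. The genotypes differed in it by 0.12 (SE 0.29, adjusted p = 0.93). The call in WT was lost with the DESeq2 Wald test (adjusted p = 0.19), without the filter on low counts (adjusted p = 0.052) and without library 1 or 3 of WT M0 or library 2 or 3 of WT M2 (adjusted p from 0.072 to 0.14). Of 7 RASSF genes tested, 4 were called lower with IL-4 in WT, Rassf7 included, and 2 were called higher. This is 85.7% of those tested, against 35.4% of all genes. Rassf2 fell by 1.30 (SE 0.10) and Rassf8 rose by 1.78 (SE 0.12), and both were called in the same direction in miR-210 KO.

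Pnpla2 rose with IL-4 in miR-210 KO. It had 27.6, 29.4 and 25.7 CPM in the M0 libraries and 39.7, 39.3 and 38.4 CPM in the M2 libraries, with no overlap. The log2 fold change was 0.52 (SE 0.09, 95% interval 0.33 to 0.72, adjusted p = 0.00053), a 1.44-fold higher level, and DESeq2 gave an adjusted p of 0.00039. In WT, where the libraries had 34, 29.4 and 27.3 CPM in M0 and 33.9, 33.5 and 31 CPM in M2 and overlapped, it was 0.14 (SE 0.09, adjusted p = 0.26). The difference between the genotypes, 0.40 (SE 0.13, 95% interval 0.13 to 0.67, unadjusted p = 0.0067), did not pass adjustment over 14825 genes (adjusted p = 0.32). The interaction was called for 0 of the 9 neighbours and 0 genes in all by edgeR, with 1 neighbour and 8.95% of all genes at an unadjusted p under 0.05. The DESeq2 Wald test called 74 genes, 0 of them neighbours.

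Of the 9 lipolysis and lipid droplet genes tested, out of 14 in the list, 5 were called higher with IL-4 in WT and 4 in miR-210 KO. None was called lower. Over all genes 18.4% and 14.3% were called higher. Called or not, 7 of the 9 had a log2 fold change above 0 in WT and 8 in miR-210 KO. Pnpla2 is itself in this list and is among the genes called higher in miR-210 KO. Mgll, the monoglyceride lipase that acts after Pnpla2, rose by 3.56 on the log2 scale in WT (SE 0.39) and by 3.88 in miR-210 KO (SE 0.34). G0s2, an inhibitor of the Pnpla2 enzyme, rose by 0.94 (SE 0.23) and 1.09 (SE 0.35), and the lipid droplet coat gene Plin3 by 0.64 (SE 0.08) and 0.48 (SE 0.09). Plin2 and Hilpda were called in WT, at 0.39 (SE 0.07) and 0.69 (SE 0.13).

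Taldo1 had 124, 99.8 and 111 CPM in miR-210 KO M0 and 94, 96.6 and 83 CPM in miR-210 KO M2, with no overlap. It fell by 0.27 on the log2 scale (SE 0.10, 95% interval -0.49 to -0.06, adjusted p = 0.048), just past both limits of a call. DESeq2 gave an adjusted p of 0.072 and the RLE normalization 0.055, and the call was kept in 1 of the 6 fits that left out 1 library. In WT its log2 fold change was 0.02 (SE 0.09, adjusted p = 0.86), and the genotypes differed by -0.29 (SE 0.15, adjusted p = 0.59). Of the 10 genes of the pentose phosphate pathway, 4 were called higher and 1 lower in WT. In miR-210 KO 3 were called higher and 3 lower, Taldo1 included. These are 50% and 60% of the list, against 35.4% and 28.4% of all genes. Tkt, the transketolase that works beside transaldolase, rose by 1.16 (SE 0.08) in WT and by 0.99 (SE 0.08) in miR-210 KO. Pgd fell in miR-210 KO by 0.50 (SE 0.08).

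Hras had a log2 fold change of -0.11 (SE 0.11, adjusted p = 0.42) with IL-4 in WT and of -0.33 (SE 0.13, adjusted p = 0.062) in miR-210 KO, where a fit of all 12 libraries gave an adjusted p of 0.036. Of 28 genes of the RAS and MAPK cascade, 6 were called higher and 6 lower in WT, and 6 higher and 5 lower in miR-210 KO. These are 42.9% and 39.3% of the list, against 35.4% and 28.4% of all genes. Rras2, a relative of Hras, rose by 6.14 (SE 0.18) and 5.36 (SE 0.24) on the log2 scale in WT and miR-210 KO. Between miR-210 KO and WT edgeR called 0 of these genes in either state, against 0.461% and 0.980% of all genes.

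Lrrc56, Deaf1, Tmem80 and Phrf1 were not called with IL-4 in either genotype. Their log2 fold changes lay between -0.17 and 0.04 in WT and between -0.28 and 0.26 in miR-210 KO. Deaf1 and Tmem80, which share the start region printed above, had -0.17 (SE 0.12) and -0.10 (SE 0.12) in WT and -0.28 (SE 0.15) and 0.20 (SE 0.12) in miR-210 KO. Tmem80 had 17, 14.5 and 15.3 CPM in miR-210 KO M0 and 17.2, 17.5 and 18.4 CPM in miR-210 KO M2, which did not overlap, at an adjusted p of 0.22. Of the EPS8 family and its partners, the group of Eps8l2, 4 of 6 were tested. Eps8 fell with IL-4 in WT by 0.57 (SE 0.07, adjusted p = 1.3e-05), and Eps8l1 was higher in miR-210 KO M2 than in WT M2 by 0.96 (SE 0.16, adjusted p = 0.0078).

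Genes farther along the chromosome also moved with IL-4. Within 100 kb 3 of 9 genes tested were called in WT and 2 of 9 in miR-210 KO. Rnh1 was called in both, at 0.54 (SE 0.09) and 0.48 (SE 0.08), in the direction opposite to Irf7, which lies on the other side of Mir210. Between 100 kb and 1 Mb 15 of 34 were called in WT and 12 of 34 in miR-210 KO. The shares were 33.3% and 22.2% within 100 kb and 44.1% and 35.3% farther out, against 35.4% and 28.4% of all genes. Ifitm6 and Ifitm3, interferon-induced membrane proteins 203 and 210 kb from Mir210, fell by 1.75 (SE 0.10) and 0.68 (SE 0.08) in WT, and Ifitm1 rose by 0.70 (SE 0.17). Cd151, a tetraspanin gene at 246 kb, rose by 1.32 (SE 0.08) in WT and 1.18 (SE 0.10) in miR-210 KO.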

How the data were processed

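Monocyte-derived macrophage RNA, depleted of ribosomal RNA, was sequenced paired-end with strand kept. The authors trimmed reads (Trimmomatic), removed duplicates (Picard), aligned to GRCm39 (STAR) and counted by gene and strand (featureCounts), and deposited raw counts for each pair of groups. The authors also deposited a signal, the counts divided by size factors set within each pair, used here only to check levels. Library numbers 1 to 3 follow the columns, which carry the group and not the sample.

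GENCODE annotation of GRCm39 matched 56323 of 56941 identifiers. Counts were tested by the edgeR quasi-likelihood test (TMM, filterByExpr) within each pair of groups (6 libraries) or over 12 libraries for the interaction, with Benjamini-Hochberg adjustment over all genes tested. Calls needed a log2 fold change beyond 0.263 in size at an adjusted p under 0.05; with IL-4 also a protein-coding gene with an average normalized count over 10; the interaction had no fold limit. CPM are TMM-scaled over the 12 libraries. Members and gene lists were chosen with earlier results of these data known. Genes named were Mir210, all 10 members, genes tested within 100 kb, the genes most like each member, called genes of each list (some are not reported here), and Arg1, Retnla and Mrc1; Ifitm1, Ifitm3, Ifitm6, Cd151, Cd81, Bst2, Ccr9, Zbtb46, Flt3, Siglech, Fcgr1, Mertk, Itgam, Rplp2, Gm16982 and Gm57210 were chosen after their values were seen. Scripts were tested on simulated data. Alternatives were the authors' DESeq2 Wald test, the RLE normalization, other filters, fold limits and distance bands, a fit of all 12 libraries, a replicate block and each library left out in turn.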

Additional observations from a re-analysis of the deposited data

How the results depend on the processing

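Calls among the neighbours rested on small margins except for Irf7, which was called with IL-4 in both genotypes under every alternative run, and Pnpla2 in miR-210 KO, called under every one except the log2 fold limit of 1. The number called with IL-4 in WT was 2, and 1 with the DESeq2 Wald test, without a filter on low counts, with a mean count of at least 50 (where Rassf7 was not tested) and with a log2 fold limit of 1; leaving out 1 library it lay between 1 and 2. In miR-210 KO the number was 3, 2 with DESeq2 or the RLE normalization (without Taldo1), 4 with the fit of all 12 libraries (with Hras), and 1 with a log2 fold limit of 1; leaving out 1 library it lay between 2 and 4. Over both states it was 0, and 1, Irf7, without a filter. Widening the nearest band to 500 kb took in more genes. The genes called with IL-4 went from 3 of 9 to 17 of 39 in WT and from 2 of 9 to 14 of 39 in miR-210 KO. The shares within 500 kb were 43.6% and 35.9%, against 35.4% and 28.4% of all genes.

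Of the log2 fold changes of single neighbours, 12 changed sign in a fit that left out 1 library, and none of these was called in any fit. Their ranges were, for miR-210 KO against WT in M0, -0.013 to 0.16 (Deaf1). In M2 they were -0.119 to 0.011 (Phrf1), -0.086 to 0.151 (Lrrc56), -0.137 to 0.076 (Deaf1) and -0.103 to 0.005 (Taldo1). With IL-4 in WT they were -0.027 to 0.107 (Lrrc56) and -0.087 to 0.12 (Taldo1). For the interaction they were -0.043 to 0.098 (Phrf1) and -0.118 to 0.236 (Irf7). Over both states they were -0.056 to 0.036 (Hras), -0.021 to 0.08 (Deaf1) and -0.08 to 0.01 (Tmem80). The cause was not tested. The labels number the libraries in 1 series, while the count columns number them 1 to 3 in each group. With that number as a replicate block, a fit chosen after seeing the data, 0 neighbours were called between genotypes in M0, in M2, over both states and for the interaction, 2 with IL-4 in WT and 2 in miR-210 KO, where Taldo1 had an adjusted p of 0.072. Over all genes the block moved the calls between genotypes from 65 to 284 in M0 and from 137 to 289 in M2. The deviations of same-numbered libraries from their group means, across genes, had a correlation above 0.1 in 2 of 12 pairs. Of the 12, 4 correlated best with their own number. The 2 pairs above 0.1 were in the M0 genotype comparison, where r lay between 0.02 and 0.34 over 3 pairs. There the block gave Irf7 a log2 fold change of -0.29 (SE 0.07) at an adjusted p of 0.071, against 0.53 without it. Rassf7 had an adjusted p of 0.16 with the block, against 0.27. A pairing in M0 could not be settled from these values, and the numbers were not taken to pair the libraries. Of the neighbours tested, depth limits Rassf7 and Lrrc56 most, with at most 57 counts in a library; Eps8l2 had too few counts for a test.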
